A study of Mus musculus with 12 samples.

Results

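The genes described here are 10 mRNAs of the endoplasmic reticulum (ER) protein folding machinery and the unfolded protein response: *Hspa5*, *Hsp90b1*, *Hyou1*, *Sdf2l1*, *Canx*, *Calr*, *Pdia4*, *Pdia6*, *Xbp1* and *Herpud1*. They were chosen by name, with earlier results of these data known, as were the gene lists below. The Entrez gene identifiers of the deposited count tables were matched to mouse symbols. All 10 were found among the 27179 genes listed and had enough reads to be tested. RNA was measured in 4 groups of 3 libraries each: somas and neurites of primary hippocampal neurons from pups labelled C57BL/6, without MG132 (Ctrl) or after 10 µM of the proteasome inhibitor MG132 for 7 h. The study's methods name FVB beside C57BL/6 mice as sources of neurons, and add that newborn pups were used, that vehicle-treated cells were the control, that neurons grew on Transwell filter inserts, and that somas were scraped off the filter before the cut filter was lysed as the neurite fraction. The labels place the cultures at day 17 or 18. The labels name no genetic change in any group. The RNA is bulk RNA, in which fewer cells of a type and less RNA per cell cannot be told apart. Nothing in the labels says that replicates were separate cultures, so p-values measure the spread between these libraries.

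The libraries held between 4247610 and 22166347 reads assigned to genes, and the 10 genes were counted with between 0 and 44284 reads in a library. The most counted gene of the series held from 12.4% of the reads (Ctrl somas 1) to 33.4% (MG132 neurites 3). Mitochondrially encoded genes held from 5.61% (MG132 somas 3) to 20.3% (MG132 neurites 1). Levels are given as CPM (reads of a gene scaled to a common library size), with each library adjusted by the trimmed mean of M-values (TMM), which sets the bulk of genes to equal levels across libraries. The cells were checked against marker lists. All 8 neuron markers had reads in every group (summed level 862 to 1741 CPM over the 12 libraries), and none was called changed in any comparison. With the replicate number as a block, 1 of the 8 was called lower with MG132 in neurites (*Snap25*), and between fractions 1 was higher (*Map2*) and 3 lower in neurites under each treatment, *Syt1* and *Gad1* among them. The 9 astrocyte markers, none of them at 0 in a group, summed to between 4884 and 6067 CPM in Ctrl somas, 2540.0 and 3336 in MG132 somas, 21000 and 26170.0 in Ctrl neurites, and 9733 and 19930.0 in MG132 neurites. Between fractions *Gfap* was higher in neurites by 3.18 ± 0.36 (log2 ± SE) in Ctrl, while *Gja1*, of the same list, was called lower (-1.09 ± 0.23). The 8 oligodendrocyte markers summed to between 1553 and 6987 CPM in Ctrl somas, 543 and 6390.0 in MG132 somas, 5141 and 23190.0 in Ctrl neurites, and 2989 and 16710.0 in MG132 neurites, and 0 of the 8 were called different between fractions (with the replicate block 2 higher in Ctrl, and 2 higher and 1 lower in MG132). Microglia markers summed to between 535 and 1061 CPM without MG132 and between 82.3 and 249 with it, and 2 of 4 nuclear RNAs were called lower in neurites than in somas with either treatment (median log2 ratio -1.51 in Ctrl; all 4 with the replicate block). Of 6 dendrite mRNAs, *Camk2a* among them, 0 were called different between fractions. Their median log2 ratio was 0.51 in Ctrl and 0.14 in MG132, and with the replicate block 2 and 1 were called higher in neurites. Of 6 tested fibroblast and vessel markers 3 were called lower with MG132 in somas and 1 in neurites (6 and 3 with the replicate block). The part of these other cells in the results below was not tested.

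The lumen of the ER folds secreted and membrane proteins with its own chaperones: an HSP70 (*Hspa5*, BiP) and an HSP90 (*Hsp90b1*, GRP94) with their helpers, the lectin chaperones calnexin and calreticulin, which hold glycoproteins, and protein disulfide isomerases. When unfolded protein accumulates in the lumen, 3 sensors of the ER membrane, IRE1, ATF6 and PERK, signal to the nucleus: IRE1 splices the *Xbp1* mRNA, ATF6 is cut to release a transcription factor, and PERK slows translation and raises ATF4. ATF6 and XBP1 act on the ER stress response element (ERSE) of chaperone promoters. MG132 blocks the proteasome, which degrades cytosolic proteins and also the misfolded proteins that the ER exports for ER-associated degradation (ERAD).

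The promoters are shown first, because these genes are classical targets of the ERSE and had different responses here. The 250 bases before the transcription start were taken from RefSeq (GRCm38.p6), which gave a promoter for 9 of the 10 genes, all but *Hyou1*. The ERSE, searched as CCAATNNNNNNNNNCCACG on both strands, was found in 5 of the 9 promoters (*Hspa5*, *Hsp90b1*, *Canx*, *Calr*, *Pdia6*) and in 0.113% of all 32851 promoters in the table. The shorter ERSE-II, ATTGGNCCACG, was found in *Herpud1* and in 0.0304% of all promoters, and does not overlap an ERSE there. *Herpud1* also held a match to the element that ATF4 binds with C/EBP partners (CARE, TGATGNAA), found in 3.45% of all promoters. The UPRE (TGACGTGG, in 0.563% of all promoters) and a 3-unit heat shock element (GAANNTTCNNGAA, in 0.466%) had no match in the 9 windows. The same search matched *Hspe1* and *Hspd1*, neighbours that share the matched stretch. It matched no other promoter of the 14 heat shock genes in the list. A missing match thus says only that these letters are not in the window. Promoters without a match are not shown, among them those of *Xbp1*, called higher in neurites, and of *Pdia4*. The matches were not tested against the responses. Below are 4 of the 6 promoters with an ERSE or ERSE-II match, in the direction of transcription up to the base before the start. Matches to the ERSE, ERSE-II and CARE are in capitals.
Hspa5, chr2:34771840-34772089, forward strand: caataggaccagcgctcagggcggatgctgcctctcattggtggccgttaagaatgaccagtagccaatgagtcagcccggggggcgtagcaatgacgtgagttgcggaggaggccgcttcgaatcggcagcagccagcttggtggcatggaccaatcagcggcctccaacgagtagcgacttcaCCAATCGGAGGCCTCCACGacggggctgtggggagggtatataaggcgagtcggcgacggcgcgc
Canx, chr11:50325674-50325923, reverse strand: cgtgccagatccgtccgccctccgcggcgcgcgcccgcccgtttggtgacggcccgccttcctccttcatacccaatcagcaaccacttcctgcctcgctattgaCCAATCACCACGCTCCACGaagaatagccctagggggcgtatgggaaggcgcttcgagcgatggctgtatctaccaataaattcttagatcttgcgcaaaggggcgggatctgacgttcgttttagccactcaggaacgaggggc
Calr, chr8:84846932-84847181, reverse strand: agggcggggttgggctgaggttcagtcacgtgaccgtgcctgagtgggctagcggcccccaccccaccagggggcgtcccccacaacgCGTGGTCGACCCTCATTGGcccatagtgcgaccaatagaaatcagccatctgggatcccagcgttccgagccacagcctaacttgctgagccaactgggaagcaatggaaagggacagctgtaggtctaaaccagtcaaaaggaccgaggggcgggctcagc
Herpud1, chr8:94386179-94386428, forward strand: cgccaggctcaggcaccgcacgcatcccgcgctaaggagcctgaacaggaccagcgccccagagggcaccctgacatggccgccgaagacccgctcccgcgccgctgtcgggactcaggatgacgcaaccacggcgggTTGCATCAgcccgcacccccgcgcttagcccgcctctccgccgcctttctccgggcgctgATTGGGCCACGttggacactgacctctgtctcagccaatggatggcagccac
In *Hspa5* the ERSE lay 65 to 47 bases before the start, in *Canx* 145 to 127 bases and in *Calr* 162 to 144 bases before it, in *Calr* on the opposite strand. In *Herpud1* the CARE match, on the opposite strand, came first and the ERSE-II lay 52 to 42 bases before the start. *Hsp90b1* held 2 ERSE matches, shown here as read on the gene's strand, at 212 to 194 bases (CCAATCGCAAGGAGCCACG) and, reversed, at 107 to 89 bases before the start (CGTGGTGAGGCACGATTGG), and *Pdia6* had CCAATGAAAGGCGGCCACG at 98 to 80 bases.

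**Figure D1:**
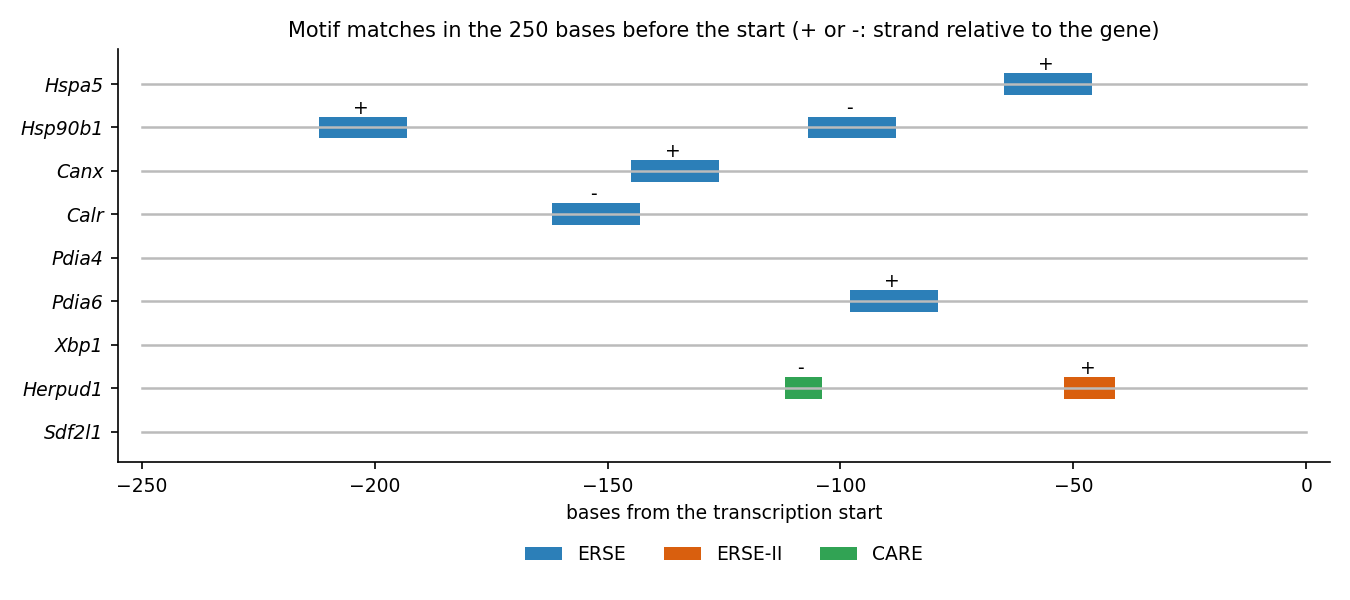
Matches to the ERSE, ERSE-II and CARE in the 250 bases before the transcription start of the 9 genes with a RefSeq promoter. The x axis gives bases from the start and the signs give the strand relative to the gene. *Hsp90b1* has 2 ERSE matches, and *Pdia4*, *Xbp1* and *Sdf2l1* have no match.

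A gene was called changed at an adjusted p under 0.01 in edgeR's quasi-likelihood test over all 14185 tested genes, with no fold threshold. Libraries with the same replicate number deviated together, so for the 10 genes the fit with the replicate number as a block is given wherever it changed a call, and for the related lists their total counts under it are given. All p-values below are Benjamini-Hochberg adjusted edgeR values unless another tool is named.

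*Hspa5*, the HSP70 of the ER lumen and the usual marker of ER stress (Entrez 14828, chr2:34772090-34776529), rose in both fractions. Its level was 495, 719 and 797 CPM in the 3 Ctrl somas libraries and 1189, 1251 and 1379 CPM in MG132 somas. In neurites it was 316, 453 and 591 CPM in Ctrl and 861, 865 and 978 CPM with MG132. The Ctrl and MG132 libraries did not overlap in either fraction. The fitted rise was 1.90-fold in somas (log2 0.93 ± 0.23 SE, adjusted p = 0.0079) and 1.99-fold in neurites (log2 0.99 ± 0.23, adjusted p = 0.0051), higher in 3 of 3 pairs in each. The somas call was close to the threshold: over the 12 fits that left out 1 library the adjusted p ranged from 0.0032 to 0.038 and stayed under 0.01 in 4, being lost without Ctrl somas 1 or 2, any MG132 somas library, Ctrl neurites 2, or MG132 neurites 1 or 2 (log2 0.76 to 1.07 over the 12). In neurites it was lost without Ctrl neurites 1 or 2 or MG132 neurites 1 or 2 (adjusted p up to 0.023, log2 0.79 to 1.35). The somas call was also lost with DESeq2 size factors, with total counts and with at least 10 counts required in every library. The neurite call was also lost with total counts and in the fit to only the groups compared. With the replicate block the adjusted p was 2.6e-05 in somas and 9.9e-06 in neurites.

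*Herpud1*, a membrane protein that organises ERAD complexes (Entrez 64209, chr8:94386429-94395371), had the largest fold rise of the 10 genes in both fractions. It was counted at 16.9, 20.2 and 17.3 CPM in Ctrl somas and at 75.2, 34.1 and 57.2 CPM in MG132 somas. In neurites the libraries read 12.7, 11.0 and 8.58 CPM in Ctrl and 34.4, 27.2 and 24.0 CPM with MG132. The groups were separate in both fractions, though MG132 somas 2 lay well under the other MG132 somas libraries. The rise was 3.08-fold in somas (log2 1.62 ± 0.27, adjusted p = 6.0e-04) and 2.66-fold in neurites (log2 1.41 ± 0.28, adjusted p = 0.0020), and it was called in all 12 leave-one-out fits in each fraction.

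*Xbp1* (Entrez 22433, chr11:5520641-5525993), the mRNA that IRE1 splices to make an active transcription factor, rose in neurites. Gene counts do not tell its spliced form from the unspliced one. In neurites it was at 23.0, 24.8 and 32.1 CPM in Ctrl and at 50.9, 43.2 and 61.8 CPM with MG132, a 1.94-fold rise (log2 0.96 ± 0.21, adjusted p = 0.0036). That call was lost without Ctrl neurites 1 or 2 (adjusted p up to 0.017), with total counts, and in the fit to only the groups compared. In somas it was at 33.6, 47.5 and 42.8 CPM in Ctrl and at 67.3, 60.9 and 76.3 CPM with MG132. The somas groups did not overlap either, and the difference (1.65-fold, log2 0.73 ± 0.21) had an adjusted p of 0.017, or 0.0025 with the replicate block.

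None of the other chaperones of the HSP70 and HSP90 machinery was called in either fraction without the replicate block. *Hsp90b1* (Entrez 22027, chr10:86690841-86705444) was at 610, 807 and 1024 CPM in Ctrl somas and at 691, 754 and 880 CPM in MG132 somas, with overlapping groups (log2 -0.07 ± 0.26). In neurites it was at 576, 730.5 and 1166 CPM in Ctrl and at 1095, 1175 and 1540.4 CPM with MG132. Its neurite difference (1.54-fold, log2 0.62 ± 0.26) had an adjusted p of 0.089, and 7.3e-04 with the replicate block, with all 3 pairs higher, and without Ctrl neurites 3 it passed the threshold at log2 1.08. A search with 75-base stretches of its longest mRNA found 7.02% of them also in *Gm15344* or *1810014B01Rik*, and 15.7% of its exon bases lie in exons of other genes, so that some of its reads may be lost or shared. The other 9 genes shared no such stretch.

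*Hyou1* (Entrez 12282, chr9:44379490-44392369), the large HSP70 relative that exchanges nucleotide on BiP, was at 70.7, 97.5 and 113 CPM in Ctrl somas and at 108, 131 and 122 CPM in MG132 somas. In neurites it lay between 58.7 and 77.5 CPM in Ctrl and between 70.1 and 80.5 CPM with MG132. The groups overlapped in both fractions and neither difference passed the test (log2 0.36 ± 0.19 and 0.17 ± 0.19). *Sdf2l1* (Entrez 64136, chr16:17130138-17132383), a small partner of ER J proteins, was the least counted, from 0 reads in Ctrl neurites 1 to 184 reads in MG132 somas 3. Its log2 differences of -0.74 ± 0.73 in somas and -0.80 ± 0.76 in neurites had standard errors of about their own size, and neither passed the test.

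Of the lectin chaperones, *Canx* rose in neurites, and *Calr* passed the test in neither fraction without the replicate block. *Canx* (Entrez 12330, chr11:50293957-50325673), the membrane-bound lectin chaperone, was at 632, 742 and 781 CPM in Ctrl somas and at 521, 667 and 651 CPM in MG132 somas. In neurites it was at 923, 1029 and 1308 CPM in Ctrl and at 1715, 2002 and 1944 CPM with MG132. The somas groups overlapped (log2 -0.23 ± 0.19), and the neurite groups did not, with a 1.74-fold rise (log2 0.80 ± 0.19, adjusted p = 0.0054). The neurite call was lost without Ctrl neurites 1, Ctrl neurites 2 or MG132 neurites 2 (adjusted p up to 0.026). It was also lost with total counts, with at least 10 counts required in every library, and in the fit to only the groups compared.

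*Calr* (Entrez 12317, chr8:84842088-84846931), the soluble lectin chaperone and calcium store of the lumen, was at 265, 366 and 425 CPM in Ctrl somas and at 219, 229.8 and 243.4 CPM in MG132 somas. All 3 MG132 somas libraries were below all 3 Ctrl somas libraries. That difference (1.52-fold lower, log2 -0.61 ± 0.23) had an adjusted p of 0.062, and 0.0025 with the replicate block. In neurites *Calr* was at 326, 445 and 552 CPM in Ctrl and at 398, 578 and 606 CPM with MG132, with overlapping groups and log2 0.26 ± 0.23.

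Both disulfide isomerases had lower mean levels with MG132 in both fractions, and neither was called without the replicate block. *Pdia4* (Entrez 12304, chr6:47796141-47813512) was at 147, 183 and 158 CPM in Ctrl somas and at 85.5, 96.0 and 109 CPM in MG132 somas, without overlap. The difference (1.68-fold lower, log2 -0.75 ± 0.20) had an adjusted p of 0.014, with 2.7e-04 under the replicate block and 9.8e-04 in DESeq2, and it passed at 0.0080 without Ctrl neurites 1. In neurites *Pdia4* was at 91.5, 144 and 131 CPM in Ctrl and at 73.5, 109 and 106 CPM with MG132, and the groups overlapped. *Pdia6* (Entrez 71853, chr12:17266589-17284785) ranged from 96.1 to 139 CPM in Ctrl somas, from 84.6 to 100.4 CPM in MG132 somas, from 77.5 to 103 CPM in Ctrl neurites and from 66.6 to 87.2 CPM in MG132 neurites. Its log2 differences, -0.39 ± 0.19 in somas and -0.21 ± 0.19 in neurites, did not pass the test.

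**Figure D2:**
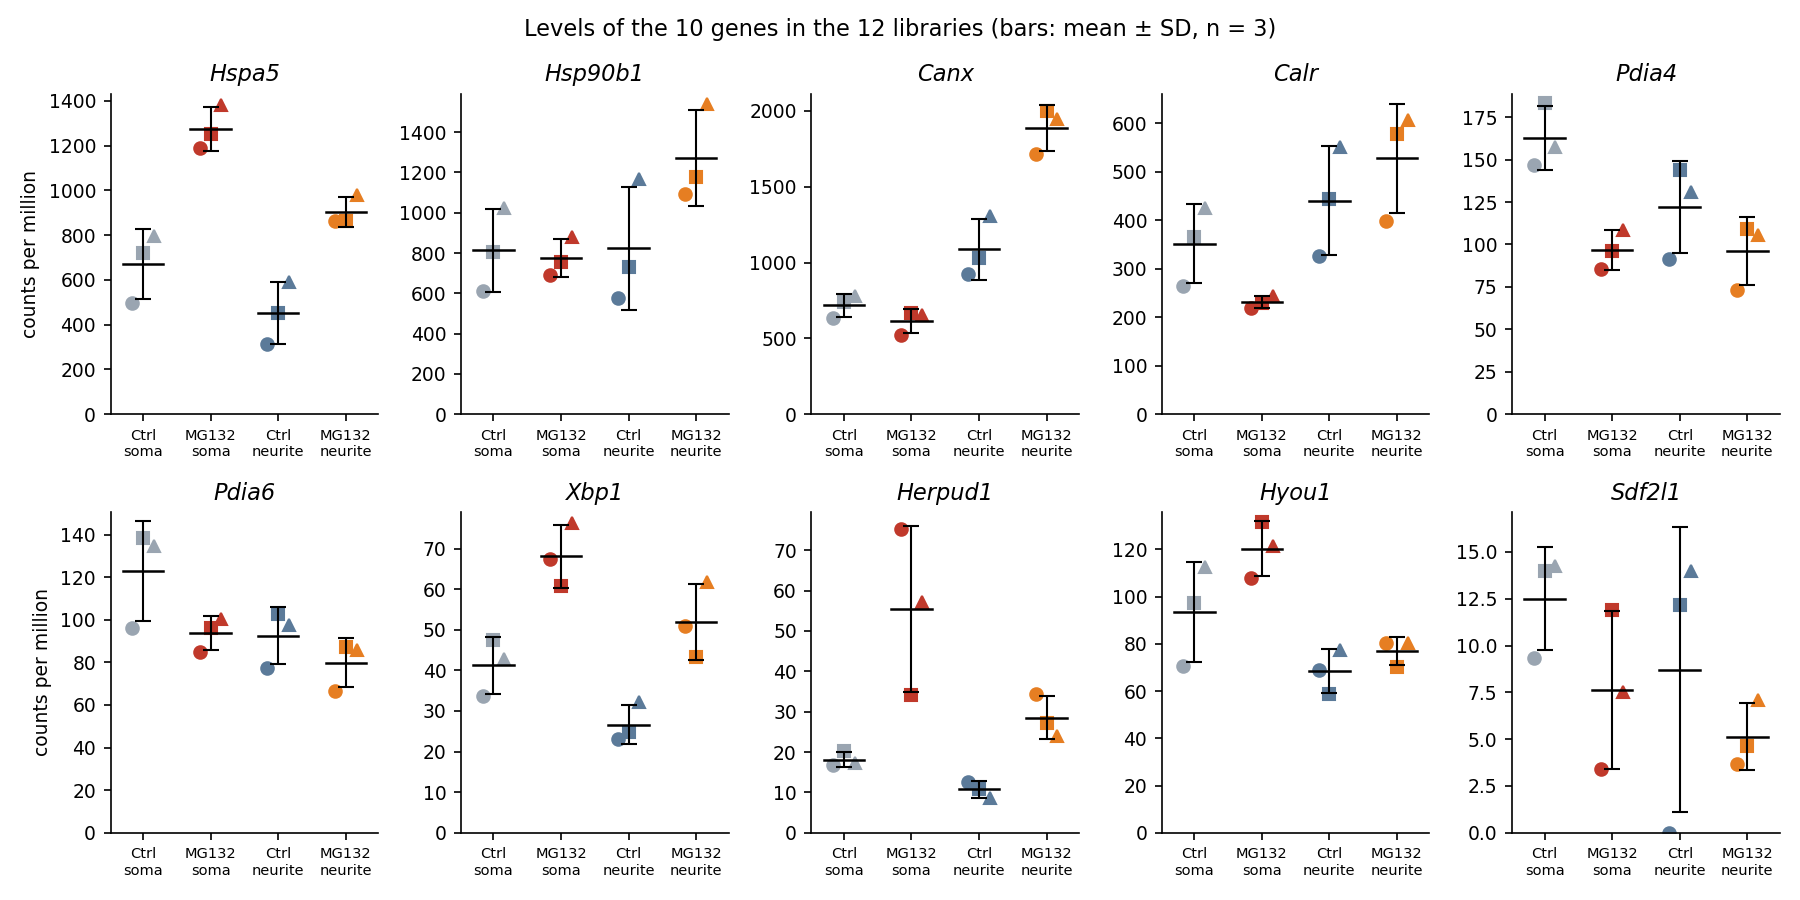
Level of each of the 10 genes in every library, in CPM on a linear axis from 0. Circles, squares and triangles are replicates 1, 2 and 3, and black bars give the mean ± SD of 3 libraries. *Hspa5*, *Xbp1* and *Herpud1* are higher with MG132 in both fractions, *Canx* is higher with MG132 in neurites (1715 to 2002 CPM against 923 to 1308), and *Pdia4* lies lower in MG132 somas.

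Counted over the 10 genes, MG132 was followed by a called rise of 2 genes in somas (*Hspa5*, *Herpud1*) and of 4 in neurites (*Hspa5*, *Canx*, *Xbp1*, *Herpud1*), and by no called fall in either. Over all genes tested, 9.52% were called higher and 5.72% lower in somas, and 9.76% higher and 5.67% lower in neurites. Among the 10 genes in somas, 2 had an unadjusted p under 0.05 for a fall and DESeq2 called 1 of them. The share of all genes under that unadjusted cut was not counted. With the replicate block the counts were 3 higher (*Xbp1* added) and 2 lower (*Calr*, *Pdia4*) in somas, against 14.1% and 11.0% of all genes, and 5 higher (*Hsp90b1* added) and 0 lower in neurites, against 13.6% and 11.4%. The median log2 change of the 10 genes was -0.15 in somas and 0.44 in neurites, beside -0.07 and -0.16 over all genes. Under scaling by total counts, which moves the median of all genes in neurites from -0.16 to -0.30, only *Herpud1* in somas was still called (adjusted p = 0.0037), with *Hspa5* at log2 0.92 in somas and 0.79 in neurites and *Canx* at 0.64 in neurites.

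The distribution between fractions was compared next, as the ratio of neurites to somas. In Ctrl, none of the 10 genes was called, while 6.30% of all genes were called higher in neurites and 1.30% lower. An unadjusted p under 0.05 was reached by 6 of the 10, and DESeq2 called 0. The share of all genes under that unadjusted cut was not counted. *Canx* had the highest ratio (1.51-fold higher in neurites, log2 0.60 ± 0.19, adjusted p = 0.042) and its Ctrl groups did not overlap. *Calr* was at log2 0.33 ± 0.23 and *Hsp90b1* at 0.02 ± 0.26. The other 7 genes were lower in neurites, from log2 -0.41 ± 0.19 for *Pdia6* to -0.76 ± 0.28 for *Herpud1*. The groups of *Pdia4*, *Xbp1* and *Herpud1* did not overlap, and the share of all genes without overlap was not counted. With the replicate block *Canx* was called higher (adjusted p = 0.0017) and *Hspa5* lower (log2 -0.57 ± 0.15, adjusted p = 0.0062), against 10.0% and 4.67% of all genes.

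After MG132, *Canx* and *Calr* were the genes called, both higher in neurites. *Canx* stood 3.08-fold higher (log2 1.62 ± 0.19, adjusted p = 3.9e-05), and *Calr* 2.29-fold higher (log2 1.19 ± 0.23, adjusted p = 0.0023). Their MG132 libraries were apart without overlap: every neurite library had at least 1715 CPM of *Canx* where no somas library had more than 667, and at least 398 CPM of *Calr* where none had more than 243.4. Among all genes 7.20% were called higher in neurites and 2.16% lower. The *Calr* call was lost without MG132 somas 2 or MG132 neurites 2 (adjusted p up to 0.011), while *Canx* was called in all 12 leave-one-out fits. With the replicate block *Hsp90b1* was also called higher (log2 0.70 ± 0.14, adjusted p = 6.0e-04), and *Herpud1* (log2 -0.95 ± 0.23, adjusted p = 0.0036; log2 -1.22 and called without MG132 somas 2) and *Hyou1* (log2 -0.64 ± 0.16, adjusted p = 0.0043) lower, against 11.1% and 6.42% of all genes. *Hspa5* was at log2 -0.50 ± 0.23 with an adjusted p of 0.15, its MG132 neurite libraries all below its MG132 somas libraries.

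These ratios depend on how libraries are scaled. TMM factors were between 1.18 and 1.44 in somas and between 0.567 and 0.999 in neurites. Scaling by total counts lowered the median neurite ratio of all genes from -0.04 to -0.70 in Ctrl and from -0.08 to -0.86 in MG132. Under it *Canx* was at -0.05 and *Calr* at -0.29 in Ctrl, *Canx* at 0.85 (adjusted p = 0.046), *Calr* at 0.41 and *Hsp90b1* at -0.11 in MG132, so that in Ctrl the sign of the *Canx* and *Calr* ratios flips while each stays above the median of all genes. Of the 9 astrocyte markers, 3 were called higher and 1 lower in neurites in Ctrl (median log2 ratio 0.08), and 5 higher and 1 lower after MG132 (median 0.77), and their part in the ratios was not tested.

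**Figure D3:**
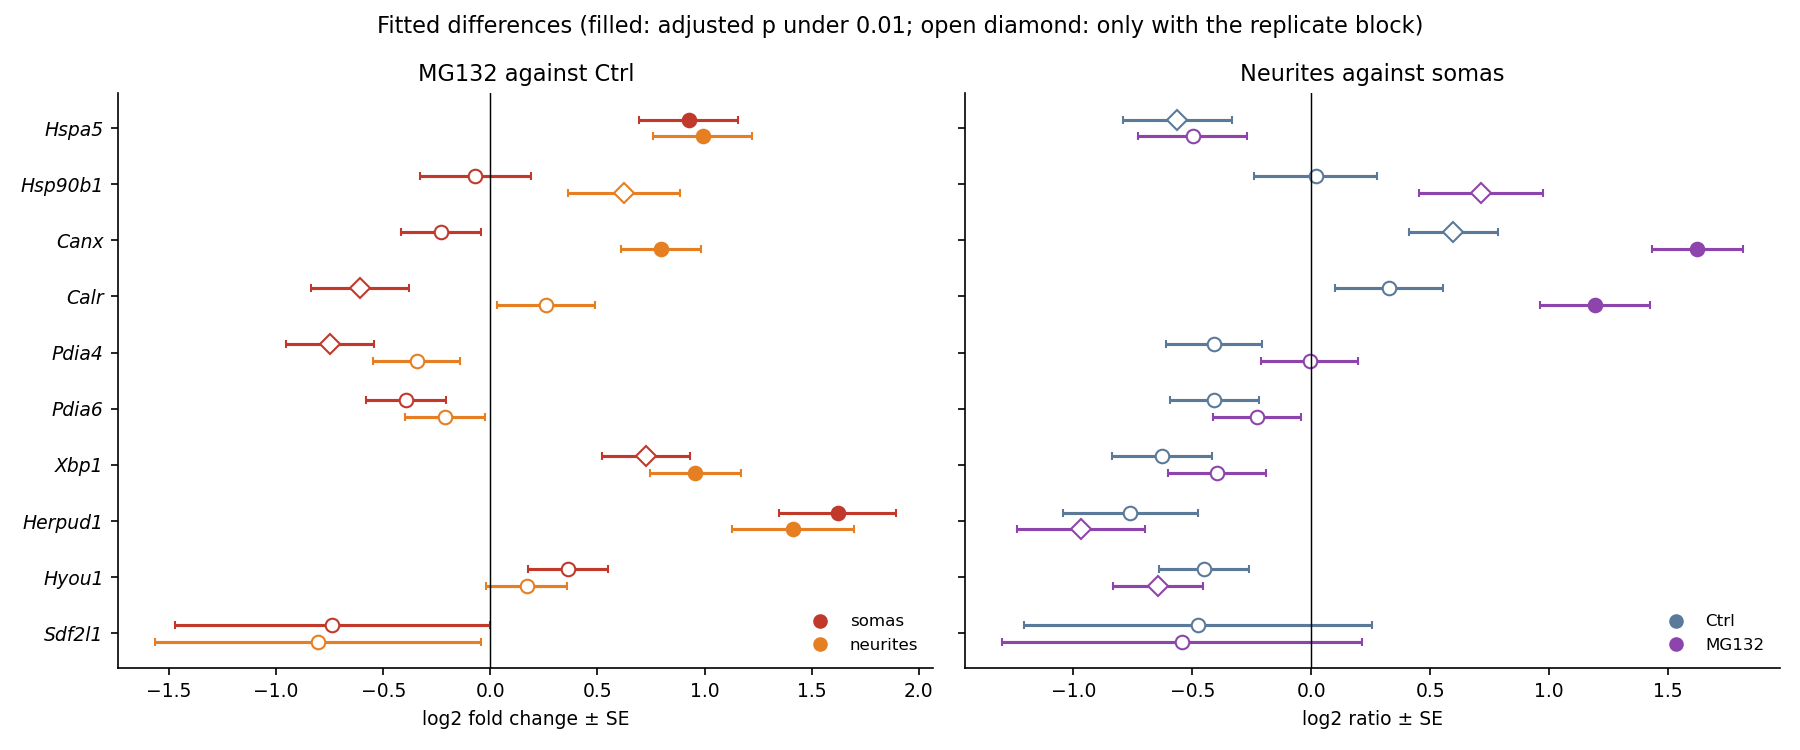
Fitted log2 differences ± SE of the 10 genes, MG132 against Ctrl on the left and neurites against somas on the right, from all 12 libraries. Filled points have an adjusted p under 0.01, and open diamonds reach it only with the replicate block. *Canx* and *Calr* stand to the right in neurites against somas after MG132 (log2 1.62 and 1.19).

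Reads of one gene per read of another in the same library do not depend on any scaling, so each gene was also set against *Hspa5*, a measure chosen after the values were seen. *Calr* had 0.535, 0.509 and 0.533 reads per *Hspa5* read in Ctrl somas and 0.184, 0.184 and 0.177 in MG132 somas. In neurites it had 1.03, 0.981 and 0.933 reads in Ctrl and 0.462, 0.669 and 0.620 with MG132. In these libraries *Calr* was lower relative to *Hspa5* with MG132 in both fractions, and higher in neurites than in somas under both treatments, with no overlap in any of these comparisons.

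*Canx* had 1.28, 1.03 and 0.980 reads per *Hspa5* read in Ctrl somas and 0.438, 0.533 and 0.472 in MG132 somas. In neurites it had 2.93, 2.27 and 2.21 reads in Ctrl and 1.99, 2.32 and 1.99 with MG132. MG132 thus went with a lower *Canx* to *Hspa5* ratio in somas, and in neurites the Ctrl and MG132 libraries overlapped. *Hsp90b1* followed the same order as *Calr*, with 1.12 to 1.28 reads in Ctrl somas, 0.581 to 0.638 in MG132 somas, 1.61 to 1.97 in Ctrl neurites and 1.27 to 1.57 in MG132 neurites. *Pdia4* had 0.198 to 0.296 reads in Ctrl somas, 0.0719 to 0.0788 in MG132 somas, 0.221 to 0.318 in Ctrl neurites and 0.0853 to 0.126 in MG132 neurites, so that its libraries differed by treatment, and those of the 2 fractions overlapped in Ctrl but not with MG132. *Xbp1* stayed between 0.0487 and 0.0729 reads per *Hspa5* read over all 12 libraries, with overlapping groups. A ratio shows that the pair changed unequally or alike in a library and not which of them moved.

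**Figure D4:**
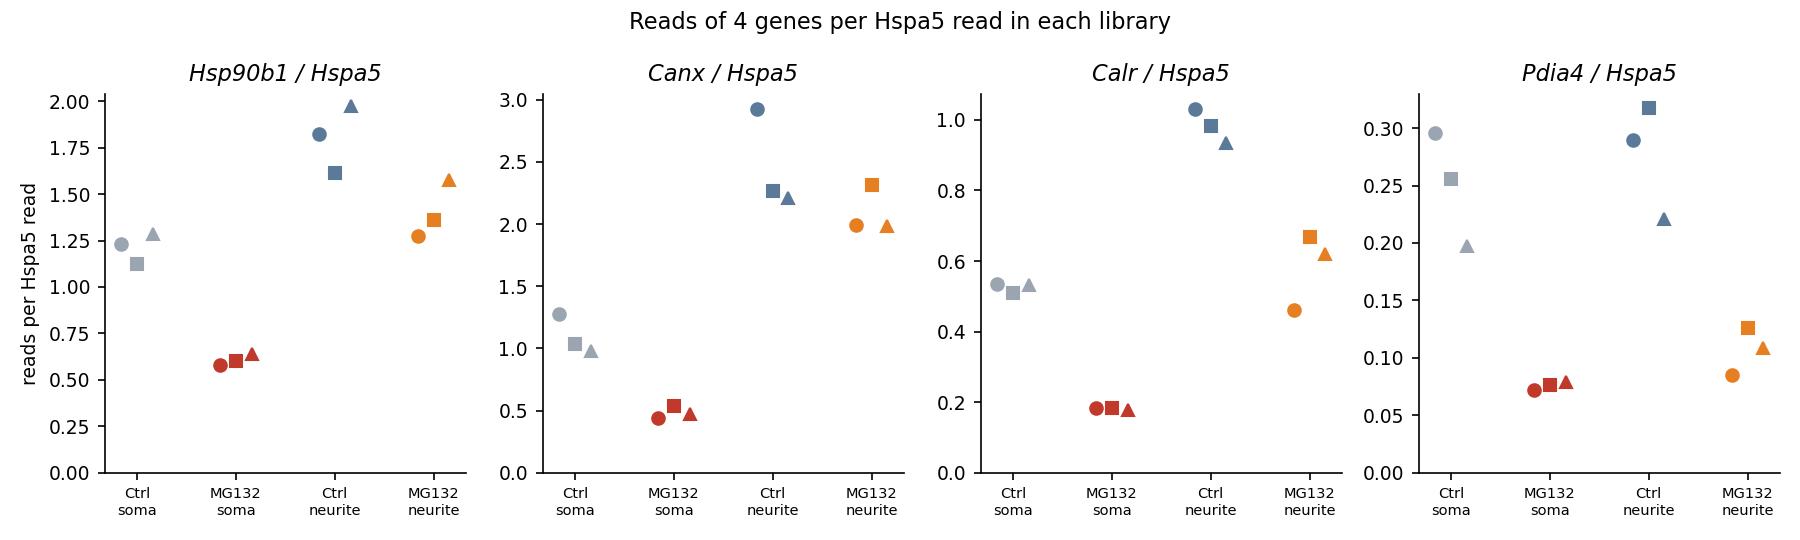
Reads of *Hsp90b1*, *Canx*, *Calr* and *Pdia4* per *Hspa5* read in each library, on linear axes from 0, with circles, squares and triangles for replicates 1, 2 and 3. *Calr* reads per *Hspa5* read run from 0.177 to 0.184 in MG132 somas up to 0.933 to 1.03 in Ctrl neurites, with Ctrl somas and MG132 neurites in between.

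Whether the response differed between fractions was tested directly, as the response in neurites minus the response in somas. None of the 10 genes was called, nor was any of the 14185 genes (0% higher, 0% lower), where 1000 had an unadjusted p under 0.05, the smallest adjusted p was 0.33 and DESeq2 called 25. The largest difference among the 10 genes was that of *Canx*, 1.03 ± 0.26 on the log2 scale (unadjusted p = 0.0014, adjusted p = 0.41). It was called with the replicate block (log2 1.04 ± 0.19, adjusted p = 0.0089), where 0.0987% of all genes were called higher and 0.0493% lower, and in DESeq2 (adjusted p = 0.0096). All 3 pairs went the same way, with differences of 1.17, 1.11 and 0.83. *Calr* followed at 0.87 ± 0.32 (unadjusted p = 0.017, adjusted p = 0.57, and 0.049 with the replicate block), and *Hsp90b1* at 0.69 ± 0.37. For *Hspa5* the difference was 0.07 ± 0.32, and for *Herpud1* -0.21 ± 0.39.

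Compared per length, as CPM per kilobase of exon, the order of the 10 genes changed between groups. In Ctrl somas *Hsp90b1* (202 ± 51.3, SD, n = 3), *Hspa5* (159 ± 37.1), *Canx* (153 ± 16.5) and *Calr* (122 ± 28.1) led, and neighbours among these 4 overlapped. In MG132 somas *Hspa5* (301 ± 22.9) lay above *Hsp90b1* (192 ± 23.8), *Canx* (131 ± 17.1) and *Calr* (80.2 ± 4.20), with no overlap between neighbours. In Ctrl neurites *Canx* (232 ± 42.3) was first, overlapping *Hsp90b1* (204 ± 75.8), and *Calr* (153 ± 39.3) and *Hspa5* (107 ± 32.6) came next. In MG132 neurites *Canx* (402 ± 32.3) was first again, overlapping *Hsp90b1* (315 ± 58.9), and *Hspa5* (213 ± 15.8) and *Calr* (183 ± 39.2) overlapped each other. By this measure *Pdia4* and *Pdia6* came next in each group, in that order, at 67.8 ± 7.89 and 32.9 ± 6.27 in Ctrl somas. The lengths are the union of exons of all annotated transcripts. For *Pdia6* that is 3745 bases against 2175 in its longest transcript, for *Hsp90b1* 4032 against 3222, and for *Pdia4* 2399 in both. The order of *Pdia4* and *Pdia6*, and of genes at close levels, thus depends on the length used. *Hyou1*, *Xbp1*, *Sdf2l1* and *Herpud1* filled the lower places, and *Herpud1* went from the last place in both Ctrl groups (7.77 ± 0.773 in somas, 4.61 ± 0.887 in neurites) to the third place below *Calr* in MG132 somas (23.8 ± 8.83) and the place above *Hyou1* in MG132 neurites (12.2 ± 2.30). The summed level of the 10 genes was 2375 to 3507 CPM in Ctrl somas, 3044 to 3625 in MG132 somas, 2415 to 3977 in Ctrl neurites and 4379 to 5434 in MG132 neurites.

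Beside the 10 genes, 103 other genes of ER folding and of the unfolded protein response were listed in 8 groups by function, and 102 could be tested. With MG132, 22 were called higher and 3 lower in somas, and 28 higher and 2 lower in neurites, with median log2 changes of 0.29 and 0.45. Over all tested genes 9.52% were called higher and 5.72% lower in somas, and 9.76% and 5.67% in neurites. Under the replicate block the counts were 30 higher and 8 lower in somas (14.1% and 11.0% of all genes) and 38 higher and 4 lower in neurites (13.6% and 11.4%). In somas 8 of the 22 came from a single group, the PERK arm and integrated stress response, and another 8 from ERAD.

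All 8 genes of the PERK arm and the integrated stress response were called higher in both fractions, with a median log2 change of 3.17 in somas and 3.0 in neurites. Whether they rose through PERK was not tested. *Chac1*, a glutathione-degrading enzyme induced by ATF4, had 12 to 20 reads in a Ctrl somas library and 205 to 1270 in an MG132 somas library (log2 5.04 ± 0.33, adjusted p = 3.0e-07). In Ctrl neurites it had 0, 3 and 2 reads, at or under the 3 reads taken as the floor of a library, and 149 to 735 reads in MG132 neurites, and no fold is given there. *Atf3*, a stress-induced transcription factor, went from 13.3 ± 3.49 to 404 ± 111 CPM in somas and from 19.0 ± 8.48 to 361 ± 43.2 CPM in neurites (SD, n = 3, adjusted p = 3.0e-07 and 7.6e-07).

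Over all genes 9.52% were called higher in somas and 9.76% in neurites (14.1% and 13.6% with the replicate block). In the sensor group 2 of 9 genes rose in each fraction, or 3 with the replicate block. The 2 were both sensors, and *Eif2ak3*, which encodes PERK, was not among them. *Ern1*, which encodes IRE1, rose 2.42-fold in somas and 2.41-fold in neurites (log2 1.28 ± 0.30 and 1.27 ± 0.31, adjusted p = 0.0057 and 0.0066). *Atf6* rose 2.22-fold and 2.47-fold (adjusted p = 0.0010 and 4.0e-04). Among ER J proteins and nucleotide exchange factors 1 of 8 rose and 1 fell in somas, and 2 rose in neurites (with the replicate block 1 and 2 in somas, and 4 rose in neurites). *Dnajb9* (ERdj4), a J protein that brings BiP to IRE1 and to ERAD, rose 3.28-fold in somas and 4.86-fold in neurites (adjusted p = 2.8e-05 and 2.4e-06). *Dnajc10* (ERdj5), a reductase that works in ERAD, fell in somas (2.02-fold lower, log2 -1.01 ± 0.19, adjusted p = 0.0012) and was at log2 -0.32 ± 0.19 in neurites.

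ERAD genes were called higher in 8 of 23 cases in each fraction and lower in none, and with the replicate block in 11 higher and 1 lower in each fraction. *Nploc4*, a cofactor of the VCP ATPase that draws proteins out of the ER membrane, rose 4.94-fold in somas and 4.49-fold in neurites (adjusted p = 8.8e-07 and 1.3e-06). *Ube2g2*, a ubiquitin-conjugating enzyme of ERAD, rose 3.88-fold and 2.41-fold (adjusted p = 8.3e-05 and 0.0018). Of 21 genes for entry into the ER, 2 rose in somas, beside 9.52% of all genes (4 with the replicate block, beside 14.1%). The 2 were *Srp68* (2.15-fold) and *Srp19* (1.99-fold), both of the signal recognition particle. In neurites 5 rose and 1 fell, beside 9.76% and 5.67% of all genes (5 and 2 with the replicate block, beside 13.6% and 11.4%). There *Srp68* rose 2.08-fold and *Srp19* 2.38-fold (adjusted p = 8.2e-04 and 0.0019).

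The enzymes of folding itself came next. Their counts stand beside 9.52% of all genes called higher and 5.72% lower in somas, and 9.76% and 5.67% in neurites. With the replicate block those shares were 14.1% and 11.0%, and 13.6% and 11.4%. Of 13 oxidative folding genes, relatives and partners of *Pdia4* and *Pdia6*, 0 were called in somas, and 1 was called higher and 1 lower in neurites. Of 7 genes of the calnexin cycle and glycan trimming, which serve *Canx* and *Calr*, 0 were called in somas and 1 was called higher in neurites. With the replicate block these 2 groups had 1 higher and 1 lower, and 1 higher, in somas, and 5 higher and 1 lower, and 1 higher, in neurites. Of 13 prolyl isomerases and other lumenal factors, 1 was called higher and 2 lower in somas, and 1 higher in neurites. With the replicate block 4 of them were lower in somas, and the other counts stayed. *Serpinh1* (HSP47), the collagen chaperone of the ER, rose 8.72-fold in somas and 6.92-fold in neurites (adjusted p = 8.8e-08 and 3.8e-07). *Fkbp2* and *Fkbp9*, prolyl isomerases, fell in somas, 2.34-fold and 2.06-fold lower (adjusted p = 0.0025 and 0.0013), and were at log2 0.20 ± 0.24 and -0.25 ± 0.19 in neurites.

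Between fractions, 6 of the 102 genes were called higher in neurites and 6 lower in Ctrl, and 10 higher and 3 lower after MG132. Over all tested genes 6.30% were called higher and 1.30% lower in Ctrl, and 7.20% and 2.16% after MG132. Fitted with the block, the counts were 9 higher and 9 lower in Ctrl (10.0% and 4.67% of all genes), and 15 and 9 after MG132 (11.1% and 6.42%). Among the genes called in Ctrl, the largest ratios were those of *Chac1* (lower, at 0 to 3 reads in each neurite library), *Fkbp9* (log2 1.43 ± 0.20), *Srp9* (1.43 ± 0.23), *Ddit3* (1.37 ± 0.29), which encodes CHOP, and *Srp14* (1.22 ± 0.20). Among those called after MG132 they were *Fkbp9* (2.23 ± 0.20), *Fkbp2* (2.08 ± 0.26), *Fkbp7* (1.85 ± 0.45), *Srp9* (1.54 ± 0.23) and, lower in neurites, *Serpinh1* (log2 -1.30 ± 0.17). *Fkbp7* had only 17, 19 and 143 reads in MG132 somas 1, 2 and 3. In the same comparison *Canx* was at 1.62 and *Calr* at 1.19.

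A list of 14 heat shock genes gave the scale of the response outside the ER, and their induction through HSF1 was not tested. All 14 were called higher in both fractions, beside 9.52% of all genes in somas and 9.76% in neurites. Their median log2 change was 2.68 in somas and 2.55 in neurites. *Hspa8*, the constitutive cytosolic HSP70, rose 3.92-fold in somas and 6.00-fold in neurites, and *Hsph1*, its nucleotide exchange factor, rose 7.59-fold and 10.7-fold. *Dnajb1* rose 17.8-fold and 12.5-fold, and *Hspa1a*, at 4 reads or more in every Ctrl library, rose from 1.44 ± 0.908 to 634 ± 132 CPM in somas and from 0.814 ± 0.455 to 414 ± 159 CPM in neurites. The largest called rise of the 10 ER genes was 3.08-fold.

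**Figure D5:**
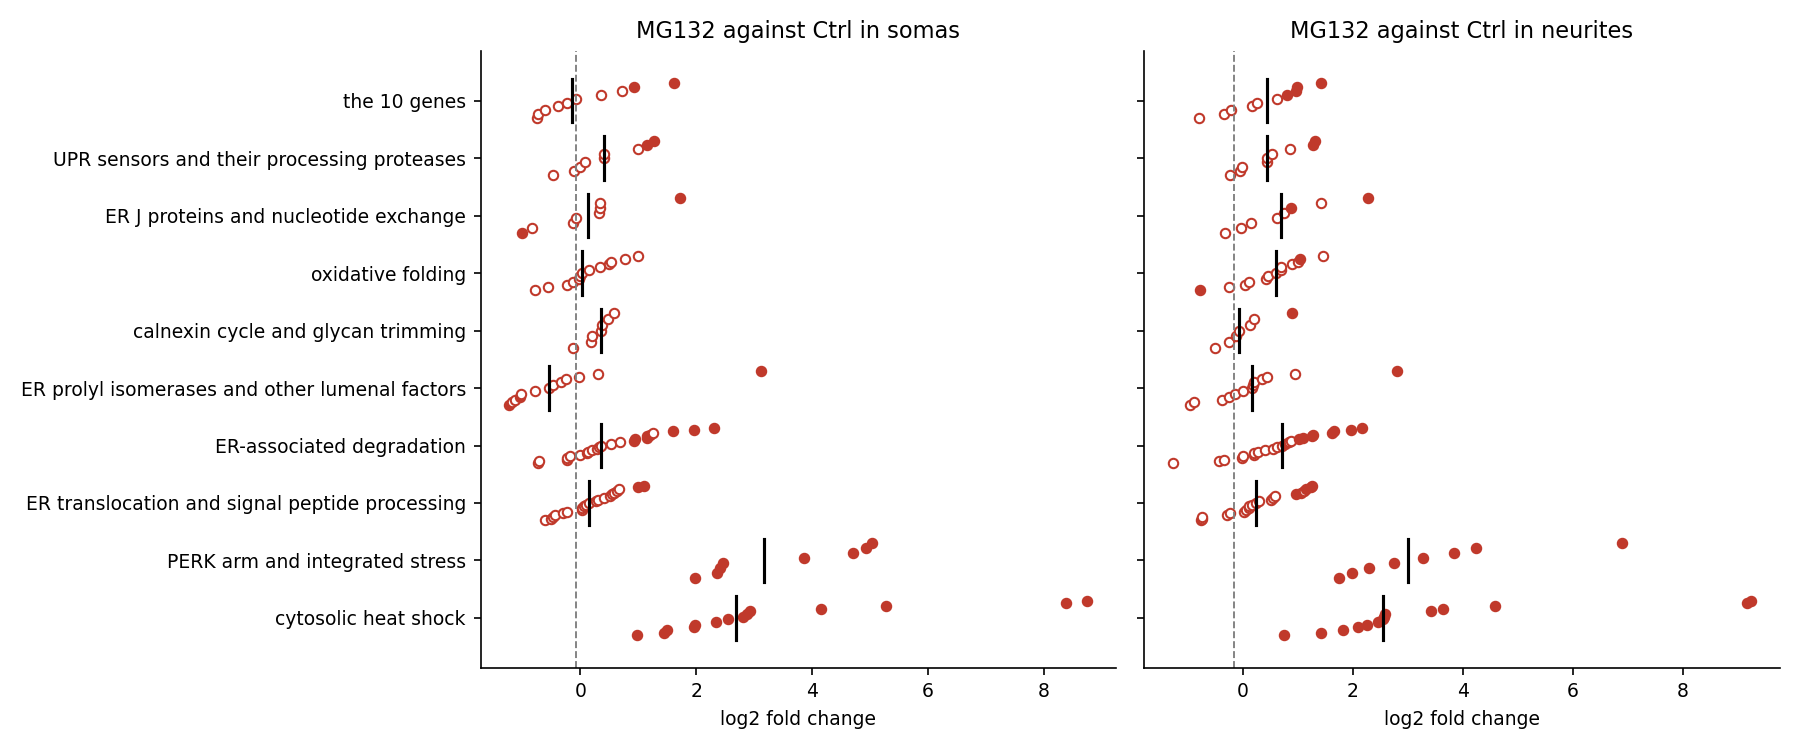
Fitted log2 fold change with MG132 of every tested gene, in somas (left) and neurites (right). Rows are the 10 ER genes, the 8 other ER and unfolded protein response groups and the heat shock genes (row labelled cytosolic). Filled points have an adjusted p under 0.01, black ticks are group medians and the dashed line is the median of all tested genes. The group of the PERK arm and integrated stress and the heat shock genes lie to the right of 0 throughout. Their medians in somas are 3.17 and 2.68. The fitted value of *Chac1* in neurites rests on 0 to 3 Ctrl reads a library.

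The 5 tested genes outside the 10 whose log2 CPM ran most like that of *Hspa5* over the 12 libraries were *Sntb2* (Pearson's r = 0.988), *Rnf19a* (0.979), *Kdm2a* (0.977), *Trib1* (0.975) and *Rab3gap2* (0.975). These correlations describe 12 libraries that fall into 4 groups and share depth and scaling. Among the 10 genes *Xbp1* was most like *Hspa5* (0.965), then *Herpud1* (0.825) and *Hyou1* (0.770), while *Canx* (-0.10), *Calr* (-0.26) and *Pdia4* (-0.30) had negative values. *Sntb2* went from 8.89 ± 3.08 to 23.3 ± 3.28 CPM in somas and from 5.23 ± 2.42 to 11.9 ± 0.929 CPM in neurites. *Trib1*, a pseudokinase, went from 32.2 ± 9.72 to 90.4 ± 13.1 CPM in somas and from 18.8 ± 7.38 to 52.2 ± 8.15 CPM in neurites.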

How the data were processed

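RNA was captured by poly(A) selection and libraries were made with the KAPA Hyperprep kit. Per the study's methods and the submitters' processing notes, the authors trimmed reads with Trimmomatic 0.38.0, aligned single-end reads to mm10 with STAR and counted them with featureCounts 2.0.1 at default settings, which ignore strand. The deposited values are raw read counts per Entrez gene, 1 table per library.

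Symbols came from RefSeq (GRCm38.p6), matched for 25275 of 27179 identifiers. The 10 genes, all gene lists and the marker lists were chosen with earlier results of these data known. Counts were tested in edgeR 4.0.16 (R 4.3.3) with 4 group means over all 12 libraries, genes kept by filterByExpr (14185) and TMM scaling. The call was an adjusted p under 0.01. DESeq2 1.42.0, other scalings, filters, thresholds and leave-one-out fits were alternatives, and the fitting code was tested on simulated data. Totals were 4247610 to 22166347 counts a library, and genes with few counts are measured less precisely. Deviations of same-numbered libraries from their group means correlated in all 18 pairs (0.12 to 0.29, mean 0.24), so the numbers were taken to pair the libraries and a fit with the replicate number as a block is given where it changed a call of the 10 genes. Exon lengths and the 75-base windows came from GENCODE M21.

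The genes named were all 10 ER genes in each comparison, in each of 8 related lists up to 2 called genes with the largest rise and 2 with the largest fall in somas, the 5 called genes of those lists with the largest ratio between fractions under each treatment, 4 cytosolic chaperones, and the 5 genes most correlated with *Hspa5*.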

Additional observations from a re-analysis of the deposited data

Results flagged for a closer look

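For *Canx* and *Calr* every replicate pair moved down with MG132 in somas and up in neurites. That pattern was itself a reason for the flag, and how many of all genes share it was not counted. For *Canx* the response in neurites exceeded that in somas by 1.03 on the log2 scale (adjusted p = 0.41 in edgeR, 0.0089 with the replicate block), with pairs at -0.28, -0.15 and -0.26 in somas and 0.89, 0.96 and 0.57 in neurites. For *Calr* the difference was 0.87 (adjusted p = 0.57, and 0.049 with the replicate block), with pairs at -0.27, -0.67 and -0.80 in somas and 0.29, 0.38 and 0.14 in neurites. Astrocyte markers, which fell with MG132 (6 of 9 called lower in somas and 4 of 9 in neurites, 8 and 7 with the replicate block), had a median response of -1.19 in somas and -0.87 in neurites, and their part in these differences was not tested.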

How the results depend on the processing

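Of 934 refitted values of the 10 genes, 837 kept their direction and their side of the threshold, 32 lost a call, 26 gained one and 39 changed sign. None of the changes of sign touched the 8 called values. Scaling by total counts gave 1 call in somas, 0 in neurites, 2 between fractions in Ctrl (*Xbp1* and *Herpud1*, lower in neurites) and 4 in MG132 (*Hspa5*, *Xbp1*, *Herpud1* and *Hyou1*, lower in neurites), with those of *Canx* and *Calr* lost. The replicate block gave 5 in somas, 2 between fractions in Ctrl, 5 in MG132 and 1 for the difference of responses, and it lost no call of the 10 genes and changed none of theirs beyond those given beside the results. DESeq2 gave 1 for the difference. At an adjusted p under 0.05 there were 4 in somas, 1 between fractions in Ctrl and 4 in MG132, a change of more than 1.7-fold left every count as it was, a log2 change beyond 1.7 left 0 in somas, in neurites and between fractions in MG132, and the fit to only the groups compared left 1 in neurites. That fit does not exist for the difference, which uses all groups. Leaving out 1 library gave 1 to 3 calls in somas, 1 to 5 in neurites, 1 or 2 between fractions in MG132, and 0 in Ctrl and for the difference.

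Signs changed only among uncalled values. For *Hsp90b1*, neurites against somas in Ctrl was -0.023 with DESeq2 size factors, -0.59 with total counts, -0.023 in DESeq2, -0.054 without a filter, -0.041 with at least 10 counts and -0.0058 with the replicate block. With total counts *Canx* and *Calr* were at -0.047 and -0.29 in Ctrl, *Hsp90b1* at -0.11 in MG132 and the *Hspa5* difference of responses at -0.13. *Pdia4* in MG132 was at 0.040 without a filter and 0.017 in only the groups compared, and the *Sdf2l1* difference at 0.055 without a filter and 0.33 with the replicate block. Leave-one-out values ran from -0.24 to 0.13 for *Hsp90b1* in somas, -0.39 to 0.22 for *Hsp90b1* and -1.01 to 0.070 for *Sdf2l1* between fractions in Ctrl, -0.11 to 0.16 for *Pdia4* in MG132, and for the difference of responses -0.14 to 0.42 for *Hspa5*, -0.46 to 0.14 for *Herpud1*, -0.29 to 0.080 for *Hyou1* and -0.61 to 0.51 for *Sdf2l1*. The cause was not tested. *Sdf2l1* could not be fitted with at least 10 counts in every library, and DESeq2 gave no adjusted p for its difference of responses.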

Other observations

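Motifs were also counted in the promoters of the 8 other ER and unfolded protein response lists, 94 promoters in all. The ERSE was found in 5 (*Creld2*, *Derl3*, *Dnajc3*, *Ero1b*, *Syvn1*) and the UPRE in 5 (*Dnajc25*, *Txndc11*, *Txndc5*, *Ube2j1*, *Vcp*). The CARE was found in 7, of which 4 (*Asns*, *Atf3*, *Chac1*, *Nupr1*) belong to the group of the PERK arm and integrated stress. The heat shock element was found in 2 (*Nploc4* and *Sec62*). These matches are descriptions of the sequence and were not tested against the responses.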
